A study of Mus musculus with 12 samples.

Results

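Chains of collagen, laminin and integrin, the protein families that build the matrix beneath renal tubules and hold cells to it, were followed in sorted mouse kidney tubules. The members are the array's genes whose name begins like a collagen chain (Col, a number, a), a laminin chain (Lama, Lamb, Lamc) or a numbered integrin chain (Itga, Itgb). The names were read from the deposited array files, and the rule itself uses no measured value. It was chosen with earlier results of these data known. This gave 78 genes, measured by 161 probes, of 27597 genes on the array. Of the 78, 72 are chains of the 3 families and 6 have a name that only begins like one. A total of 59 members, 54 of them chains, were bright enough to be tested, among 17071 genes tested in all.

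A COPAS large-particle sorter divided a suspension of renal tubules into tubules that fluoresced with EGFP, which the study's design text calls distal convoluted tubules (DCT), tubules that did not, and a total fraction. These groups are named EGFP+, EGFP- and ALL. Each fraction was taken from the same 4 mice, of which mice 1 and 3 were female and mice 2 and 4 male, so that n = 4 per fraction and 12 arrays were made. The promoter that drives EGFP and the strain and age of the mice are not stated in the labels, and no treatment is named. Because the ALL fraction holds both kinds of tubule, it shares material with the other 2 groups.

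The arrays' upper quartile of processed signal ran from 922 to 2270, and 54.3% to 66.0% of spots were well above background. A level is the log2 signal minus the array's 75th percentile, so that 0 is the upper quartile of all probes on that array. A difference is between fraction means of such levels, with a standard error (SE), and errors after a level are standard deviations (SD) over mice. Levels of different genes come from different probes and are not compared. Probe positions are those of the mm8 mouse genome as written in the files, and no gene annotation of that build was used, so exon and UTR are not given. As a check of the labels, Slc12a3, the sodium chloride cotransporter that marks the DCT, had a level of 7.52 ± 0.23 in EGFP+, 4.51 ± 0.34 in the ALL fraction and -0.85 ± 0.66 in EGFP- tubules (SD, n = 4).

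Every tubule rests on a basement membrane, a sheet in which collagen IV and laminins form separate networks. Collagen IV is a triple helix of chains that assemble in fixed sets, with Col4a1 and Col4a2 in nearly all basement membranes, Col4a3, Col4a4 and Col4a5 in the glomerular filter and in some tubules, and Col4a5 with Col4a6 in other sites. A laminin is a cross of an alpha, a beta and a gamma chain. Integrins are receptors of an alpha and a beta chain that span the plasma membrane, bind matrix outside and connect to the actin skeleton inside. Fibrillar collagens such as collagens I, III and V are known mainly as products of stromal cells between the tubules. In bulk RNA of a sorted fraction, fewer cells of a type and less RNA per cell cannot be told apart.

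The 6 collagen IV genes lie in pairs that start close together and run in opposite directions. In the RefSeq genes of GRCm38.p6, Col4a1 (8, 11198423 to 11312889) and Col4a2 (8, 11312805 to 11449287) overlap by 85 bases at their starts, and Col4a4 (1, 82448419 to 82587034) and Col4a3 (1, 82586921 to 82722059) by 114 bases. Col4a6 and Col4a5 on chromosome X are 1274 bases apart. The start regions of both genes of the first pair and of Col4a4 are shown because the first pair fell together in EGFP+ tubules, whereas Col4a3 and Col4a4 moved in opposite directions. Each window holds 300 bases, credited to RefSeq with the build GRCm38.p6, and the table used here matched these 3 genes. No window was available for Col4a3. Capitals mark the GC box (GGGCGG) and the CCAAT box (CCAAT), searched on both strands, so that CCGCCC and ATTGG are their reverse complements.
Col4a1, chr8:11312777-11313076, minus strand: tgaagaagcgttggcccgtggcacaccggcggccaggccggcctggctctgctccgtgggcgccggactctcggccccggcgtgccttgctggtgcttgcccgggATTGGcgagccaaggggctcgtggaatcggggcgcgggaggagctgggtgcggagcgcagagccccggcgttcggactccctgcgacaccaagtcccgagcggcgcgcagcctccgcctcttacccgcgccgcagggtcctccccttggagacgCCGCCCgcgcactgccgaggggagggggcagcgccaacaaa
Col4a2, chr8:11312555-11312854, plus strand: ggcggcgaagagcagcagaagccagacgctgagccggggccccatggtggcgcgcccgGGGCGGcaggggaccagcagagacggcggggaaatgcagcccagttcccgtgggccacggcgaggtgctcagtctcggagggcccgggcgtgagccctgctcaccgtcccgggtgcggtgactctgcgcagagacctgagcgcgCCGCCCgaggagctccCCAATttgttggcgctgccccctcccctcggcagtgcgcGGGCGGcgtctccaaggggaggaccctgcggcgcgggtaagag
Col4a4, chr1:82586800-82587099, minus strand: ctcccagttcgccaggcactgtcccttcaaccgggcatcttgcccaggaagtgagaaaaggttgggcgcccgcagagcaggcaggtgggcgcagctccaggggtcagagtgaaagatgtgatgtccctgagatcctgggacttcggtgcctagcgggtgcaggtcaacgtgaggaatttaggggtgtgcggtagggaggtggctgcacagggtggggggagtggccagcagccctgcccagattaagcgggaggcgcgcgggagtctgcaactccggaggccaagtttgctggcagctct
The windows of Col4a1 and Col4a2 share 78 bases, read on opposite strands. Col4a1 held 1 GC box and 1 CCAAT box, Col4a2 held 3 GC boxes and 1 CCAAT box, and Col4a4 held neither in this window. The GC box of Col4a1 lies in the shared bases and is the same site as 1 of those in Col4a2. Over all 32851 windows of that length, 35.7% held the GC box and 37.4% the CCAAT box, so that neither is particular to these genes. A TATA box (TATAAA, both strands), held by 13.6% of windows, was in none of the 3.

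Between EGFP+ and EGFP- tubules, 43 of the 59 tested members passed the threshold (adjusted p under 0.05), 15 higher and 28 lower in EGFP+. Among all genes tested, 58.2% passed, 32.3% higher and 25.9% lower. Of the tested members, 25.4% were higher and 47.5% lower. The members' median log2 difference was -0.65, beside a median of 0.11 over all genes. With the 10 members that had no array above background in 1 fraction set to their bound, the median was -0.52. It was -0.16 with an alternative background model (normexp, from the mean and local background signals). That model was run with a constant of 50 added to each signal, which by itself makes log2 differences of dim probes smaller. The median was -0.23 with no filter on dim probes, -0.22 over the 36 members above background on all 12 arrays and -0.42 without mouse 4. Of those 36 members, 27 passed, fewer of them lower than higher. By measured signal, background signals included, at least 4-fold lower levels were called for 17 members. At least 4-fold higher ones were called for 2, Col5a2 and Itgb1bp2. Not all of these folds are secured, since the bounds of Itgb1bp2 and Col5a3, given below, are under 4-fold. Over all genes, 13.1% were called at least 4-fold lower and 5.23% at least 4-fold higher. Of the members called, 14 of the 15 higher ones were higher in every mouse, the exception being Itga6, and 26 of the 28 lower ones were lower in every mouse, with Col5a1 and Itga5 as exceptions. The sign was the same within each of the 3 array slides for 42 of the 43, all but Itga5. The mice of the 2 fractions differed within slides, and slide 2 set EGFP+ of female mouse 3 against EGFP- of male mouse 2. Signs by mouse and by slide come from the arrays that gave the calls, so they are no separate test. Their share over all genes was not counted. With normexp, 27 of the 43 passed, 9 higher and 18 lower, and the log2 difference was smaller by over 1.5 times for 21 of the 43.

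**Figure D1:**
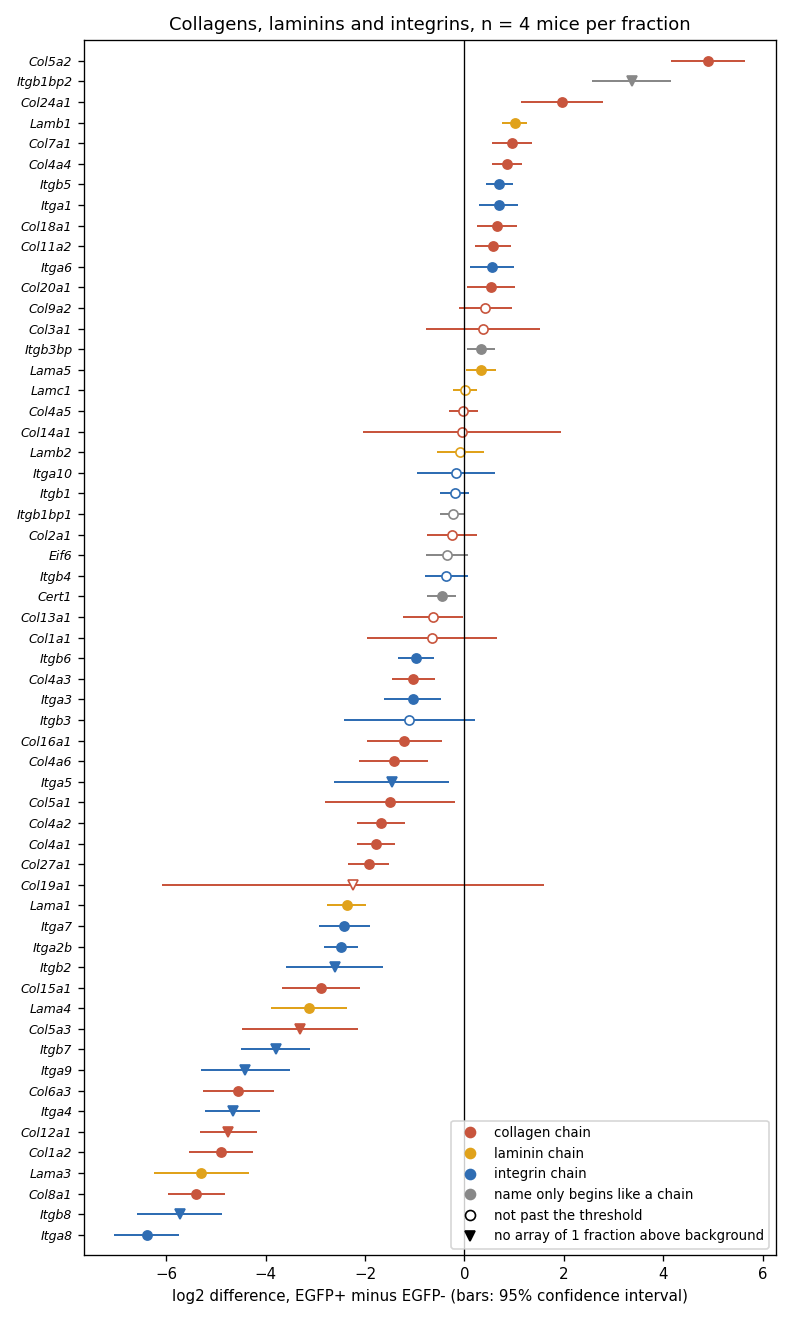
Log2 difference between EGFP+ and EGFP- tubules (horizontal axis) for the tested members, 1 of the 59 left out, ordered by size, with 95% confidence intervals from limma over 4 mice per fraction. Filled symbols passed the threshold, and triangles mark members without any array above background in 1 of the fractions. The members run from Itga8 at -6.39 to Col5a2 at 4.91, with more filled symbols to the left of 0 than to the right.

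Among the 6 collagen IV chains, 4 were lower in EGFP+ tubules, 1 was higher and 1 did not pass, with a median log2 difference of -1.23, or -0.79 with normexp. Beside this and each count by chain family below, 32.3% of all genes tested were higher and 25.9% lower. The widely used chains Col4a1 and Col4a2 fell by a similar amount. Col4a1 (probe at chr8:11198981-11199040) had levels of -0.0045, 0.35, 0.073 and 0.17 in EGFP+ tubules of mice 1 to 4, 1.69, 2.11, 1.80 and 1.47 in the ALL fraction and 1.82, 2.22, 2.05 and 1.64 in EGFP- tubules. All EGFP+ values lay below all others. The difference from EGFP- was -1.78 (SE 0.16, adjusted p 2.02e-06), which is 3.44-fold. Col4a2 (probe at chr8:11448812-11448871) was at 0.28, 0.49, 0.027 and 0.13 in EGFP+, 1.77, 2.10, 1.93 and 1.37 in the ALL fraction and 1.85, 2.37, 2.01 and 1.42 in EGFP- tubules. Here too the EGFP+ values did not overlap with the rest, and the difference was -1.68 (SE 0.21, adjusted p 2.88e-05). The second probe of each gene gave -1.69 (adjusted p over probes 0.000235) and -1.56 (adjusted p over probes 0.000244).

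The chains of the glomerular filter moved in different directions. Col4a3, mutated in Alport disease, was at 1.18, 1.71, 1.25 and 1.55 in EGFP+, 2.02, 2.73, 2.35 and 2.19 in the ALL fraction and 2.38, 2.82, 2.23 and 2.37 in EGFP- tubules (probe at chr1:82600224-82600283). The groups did not overlap, and the level in EGFP+ was 2.04-fold lower than in EGFP- (log2 difference -1.03, SE 0.19, adjusted p 0.000533). A second Col4a3 probe gave -0.84 (adjusted p over probes 0.0156). Col4a4, which assembles with it and starts beside it, was instead higher, at 3.26, 3.55, 3.52 and 3.68 in EGFP+ against 2.69, 2.93, 2.53 and 2.60 in ALL and 2.62, 2.83, 2.46 and 2.68 in EGFP- tubules (probe at chr1:82327502-82327561). Each EGFP+ value lay above all of the others. The difference was 0.85 (SE 0.13, adjusted p 0.000136). A second Col4a4 probe, however, differed by 0.37 (adjusted p over probes 0.193), and with normexp the gene's difference was 0.23 (adjusted p 0.451). Whether Col4a3 and Col4a4 differ from each other in their response was not tested, because the pair was chosen after its values were seen. Col4a5, the third chain of that helix, was at -0.88, -0.74, -1.11 and -0.89 in EGFP+ and -0.70, -0.86, -1.01 and -0.94 in EGFP- tubules, and -0.88, -0.92, -1.09 and -1.25 in ALL (probe at chrX:136934820-136934879). These ranges overlapped, and the difference of -0.026 (95% confidence interval -0.30 to 0.24) did not pass. Col4a6 was lower, at -3.25, -3.34, -2.61 and -3.61 in EGFP+, -1.71, -2.16, -1.41 and -2.73 in the ALL fraction and -1.55, -1.88, -1.39 and -2.30 in EGFP- tubules (probe at chrX:136411815-136411874). Its difference was -1.42 (SE 0.31, adjusted p 0.00181), with no overlap between EGFP+ and EGFP- but with overlap between EGFP+ and ALL. The gene's probes disagreed, since its other 2 tested probes gave 0.03 and -0.76 and neither passed, and with normexp the difference was -0.44 (adjusted p 0.262).

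**Figure D2:**
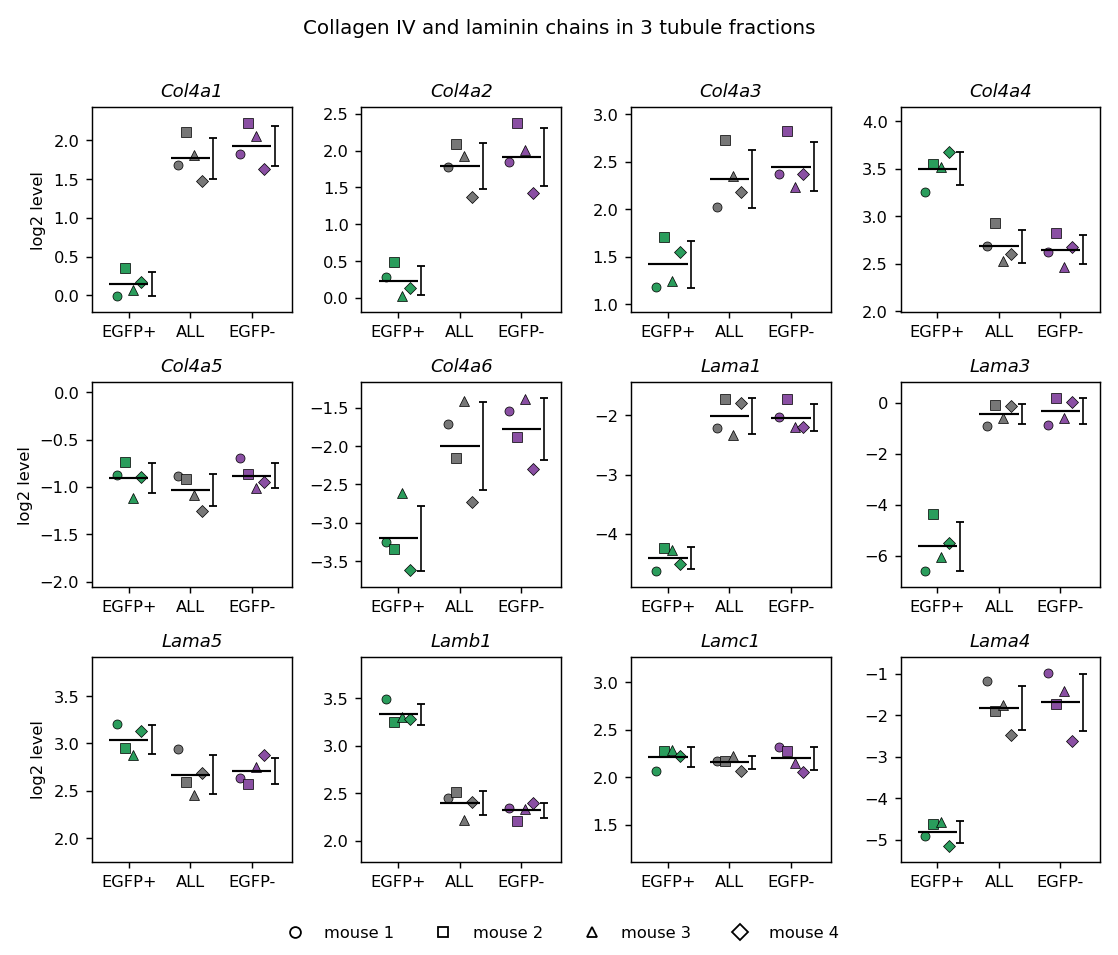
Log2 level relative to the array's 75th percentile (vertical axes, scaled separately for each gene) of the 6 collagen IV chains and 6 laminin chains in EGFP+, ALL and EGFP- tubules. Each symbol is 1 mouse, the line is the mean and the bar the SD (n = 4). Col4a1, Col4a2, Col4a3, Lama1, Lama3 and Lama4 were below the other fractions in all EGFP+ samples, Col4a4 and Lamb1 above them, and Col4a5 and Lamc1 overlapped.

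Of the 8 tested laminin chains, 3 were higher in EGFP+ tubules, 3 were lower and 2 did not pass (median log2 difference -0.036). These counts are close to the shares over all genes, 32.3% higher and 25.9% lower. The higher ones include Lamb1 and Lama5. Lamb1, the beta chain of most epithelial laminins, was at 3.50, 3.25, 3.30 and 3.28 in EGFP+, 2.45, 2.51, 2.22 and 2.41 in the ALL fraction and 2.35, 2.21, 2.33 and 2.40 in EGFP- tubules (probe at chr12:31913875-31915221, a span that includes intervening sequence). The EGFP+ values were above all others, by 1.01 on the log2 scale against EGFP- (SE 0.10, adjusted p 4.66e-06), a 2.01-fold higher level. Lama5, the main alpha chain of mature tubular basement membrane, was at 3.20, 2.95, 2.87 and 3.13 in EGFP+ and 2.64, 2.57, 2.75 and 2.88 in EGFP- tubules, with 2.95, 2.59, 2.46 and 2.68 in ALL (probe at chr2:180105781-180105795). The ranges overlapped although each mouse had more in EGFP+, and the difference of 0.33 (adjusted p 0.0473) no longer passed when any 1 of the 4 mice was left out, with adjusted p between 0.0582 and 0.168.

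The 3 lower laminin genes all encode alpha chains. Lama3, an alpha chain of epithelial laminins, was at -6.59, -4.34, -6.04 and -5.50 in EGFP+, -0.92, -0.087, -0.58 and -0.13 in the ALL fraction and -0.89, 0.17, -0.61 and 0.013 in EGFP- tubules (probe at chr18:12725696-12725755). Only 1 of the 4 EGFP+ arrays was well above background. The level was lower than in EGFP- (adjusted p 6.50e-07). Its size rests mostly on signals not well above background, with a log2 difference of -5.29 (SE 0.43), or -2.55 with normexp. Its beta partner Lamb3 was too dim to be tested. Lama1, an alpha chain known from proximal tubule and mesangial matrix, was at -4.62, -4.25, -4.27 and -4.51 in EGFP+, -2.21, -1.72, -2.32 and -1.79 in the ALL fraction and -2.03, -1.73, -2.20 and -2.20 in EGFP- tubules (probe at chr17:67722621-67723583). The groups did not overlap, with a difference of -2.37 (SE 0.17, adjusted p 2.30e-07), and with normexp it was -0.64 (adjusted p 0.152). Lama4, an endothelial alpha chain, was at -4.89, -4.62, -4.58 and -5.14 in EGFP+, -1.18, -1.89, -1.76 and -2.48 in the ALL fraction and -0.99, -1.73, -1.42 and -2.61 in EGFP- tubules (probe at chr10:38795404-38795463), again without overlap. Its difference was -3.12 (SE 0.34, adjusted p 8.27e-06). The remaining partners did not pass. Lamc1, the gamma chain of most laminins, was at 2.07, 2.28, 2.28 and 2.23 in EGFP+ and 2.32, 2.27, 2.16 and 2.05 in EGFP- tubules, a difference of 0.013 with a 95% confidence interval of -0.20 to 0.23. Lamb2, the beta chain of the glomerular filter, differed by -0.086 (interval -0.54 to 0.37).

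Of the 10 tested integrin alpha chains, 2 were higher in EGFP+ tubules, 7 were lower and 1, Itga10 (-0.17), did not pass. The median log2 difference was -1.94, or -0.57 with normexp and -0.24 over those above background on all 12 arrays. Itga8, the nephronectin receptor chain of mesangial and smooth muscle cells, was the most strongly lower of all members measured in both fractions. Its levels were -2.47, -2.68, -2.87 and -3.88 in EGFP+, 3.52, 3.04, 3.16 and 2.63 in the ALL fraction and 3.70, 3.27, 3.53 and 3.14 in EGFP- tubules (probe at chr2:12024688-12024747). The EGFP+ values were far below the rest, 83.7-fold against EGFP- (log2 difference -6.39, SE 0.29, adjusted p 7.60e-09). Itga7, a laminin receptor chain of muscle, was at -4.29, -4.48, -5.52 and -4.41 in EGFP+, -2.38, -2.17, -2.44 and -2.25 in the ALL fraction and -2.39, -2.24, -2.13 and -2.28 in EGFP- tubules (probe at chr10:128360883-128360941). It did not overlap between fractions and was lower by 5.34-fold (adjusted p 2.47e-06), although with normexp it was -0.92 on the log2 scale (adjusted p 0.0965).

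For Itga4, Itga9 and Itga5 no EGFP+ array was well above background, so that the fold is a lower bound where one can be given. Such members, here and below, met the filter through ALL and EGFP- arrays alone. Their p-values are not independent of that filter. Itga4, an alpha chain of leukocyte receptors, was at -1.83, -1.98, -1.74 and -2.28 in EGFP- and -1.82, -2.28, -2.31 and -2.71 in ALL tubules (probe at chr2:79131372-79131431), and its EGFP+ signals, not well above background, were at -5.99, -6.89, -6.56 and -7.05. It was at least 9.82-fold lower in EGFP+ (adjusted p 2.07e-08). Itga9 was at -2.60, -3.12, -1.47 and -3.41 in EGFP- and -2.85, -3.39, -2.75 and -3.65 in ALL tubules (probe at chr9:118747480-118747539), with EGFP+ signals of -7.56, -6.38, -7.08 and -7.22. It was at least 6.07-fold lower (adjusted p 1.81e-06), and did not pass with normexp (-0.79, adjusted p 0.205). Itga5, the fibronectin receptor chain, had a measured difference of -1.47 (adjusted p 0.0292) with 1 mouse in the other direction. This call ended when mouse was a block (adjusted p 0.0522) and without mouse 1, 2 or 3 (0.148, 0.216 and 0.165), and the sign turned with normexp (0.58, adjusted p 0.380). Itga2b, the platelet alpha chain, was lower by 5.58-fold (log2 difference -2.48, adjusted p 5.08e-08), with 2 of 4 EGFP+ arrays above background, and with normexp it was -0.45 (adjusted p 0.340). Itga3, the laminin receptor chain of podocytes and tubules, was at -1.65, -1.94, -2.01 and -1.90 in EGFP+ and -0.60, -0.86, -0.48 and -1.39 in EGFP- tubules, without overlap. It was 2.06-fold lower (log2 difference -1.04, SE 0.25, adjusted p 0.00374), and all 3 of its probes passed in that direction.

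Both higher alpha chains pair with Itgb1. Itga1, a collagen IV receptor chain, was at 0.14, 0.43, 0.28 and 0.38 in EGFP+, -0.39, -0.02, -0.24 and -0.72 in the ALL fraction and -0.20, -0.33, -0.23 and -0.75 in EGFP- tubules (probe at chr13:116087435-116089089). The EGFP+ values lay above the others, by 0.69 (SE 0.17, adjusted p 0.00392), and all 3 probes passed. Itga6, a laminin receptor chain of epithelia, was at 4.03, 4.44, 4.66 and 4.41 in EGFP+, 4.05, 3.93, 4.16 and 3.50 in the ALL fraction and 4.12, 3.53, 4.04 and 3.62 in EGFP- tubules (probe at chr2:71658755-71658814). The ranges overlapped, and mouse 1 was slightly lower in EGFP+ than in EGFP- tubules. The difference of 0.56 (SE 0.19, adjusted p 0.0274) did not pass without mouse 2, 3 or 4 (adjusted p 0.169, 0.0736 and 0.0798) or with normexp (0.40, adjusted p 0.117). Its other 2 probes passed as well, at 1.58 and 0.76.

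Among the 8 tested integrin beta chains, 1 was higher, 4 were lower and 3 did not pass (median log2 difference -1.04, or -0.36 over those above background on all 12 arrays and -1.74 with the mean of a gene's probes). Of the 3 beta chains that pair with the alpha v chain and are found in epithelia, 1 was higher and 2 were lower. Itgb5, a vitronectin receptor chain, was at 6.12, 6.03, 6.15 and 6.36 in EGFP+, 5.60, 5.38, 5.63 and 5.32 in the ALL fraction and 5.56, 5.39, 5.53 and 5.38 in EGFP- tubules (probe at chr16:33868784-33868843). Every EGFP+ value lay above the rest, and the level was 1.63-fold higher than in EGFP- (log2 difference 0.70, SE 0.11, adjusted p 0.000207). Itgb6, an epithelial chain that activates TGF-beta, was at 2.58, 2.43, 2.30 and 2.36 in EGFP+, 2.95, 3.63, 3.30 and 3.23 in the ALL fraction and 3.17, 3.65, 3.42 and 3.33 in EGFP- tubules (probe at chr2:60399318-60399377). The EGFP+ values were the lowest, with a log2 difference of -0.97 (SE 0.15, adjusted p 0.000168). A second probe gave -1.19 and another -0.42 (adjusted p over probes 0.100). Itgb8 was the member with the largest bound. It was at -0.65, -0.85, -0.42 and -1.47 in EGFP- and -0.73, -0.66, -0.92 and -1.31 in ALL tubules (probe at chr12:119632348-119632407), while no EGFP+ array was well above background and the signals there were at -7.68, -5.78, -5.99 and -6.86. The level was at least 21.2-fold lower in EGFP+ (adjusted p 1.22e-07), and on its second tested probe no EGFP+ array was above background either. The alpha v chain itself, Itgav, which the naming rule does not cover, was 1.68-fold higher in EGFP+ (3.24 ± 0.12 against 2.49 ± 0.11, adjusted p 0.000261).

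Itgb1, the beta chain shared by most matrix receptors, was at 1.69, 1.72, 1.75 and 1.87 in EGFP+, 2.01, 1.94, 1.91 and 1.51 in the ALL fraction and 2.01, 1.85, 2.12 and 1.83 in EGFP- tubules (probe at chr8:131618682-131618741). These values overlapped, and the difference of -0.20 (95% confidence interval -0.47 to 0.079) did not pass. Itgb4, the hemidesmosome chain that pairs with Itga6, differed by -0.36 (interval -0.78 to 0.053, adjusted p 0.123). It was lower in each of the 4 mice and passed with mouse as a block (adjusted p 0.00277). Itgb3, of the vitronectin receptor and platelets, depended on the probe. Its brighter probe was at 0.45, 0.0031, -0.005 and 0.33 in EGFP+ and 2.45, -0.77, 2.17 and 1.36 in EGFP- tubules, with mouse 2 alone below its EGFP+ value, and differed by -1.11 (adjusted p 0.131). That probe passed with mouse as a block (0.0474) and without mouse 2 (-1.73, 0.00208), and the gene's second probe had no EGFP+ array above background and was lower there. The leukocyte chains Itgb2 and Itgb7 had no EGFP+ array above background. Itgb7 was at -1.15, -1.64, -1.19 and -2.41 in EGFP- and -1.21, -1.79, -1.30 and -2.31 in ALL tubules, against signals of -5.19, -5.20, -5.74 and -5.45 in EGFP+, at least 11.7-fold lower (probe at chr15:102044053-102044112, adjusted p 6.37e-07). Itgb2 was at -2.68, -2.87, -2.65 and -3.82 in EGFP- tubules against signals of -5.08, -5.24, -6.17 and -5.99 in EGFP+, at least 4.33-fold lower (probe at chr10:77008949-77009008, adjusted p 0.000295), but with normexp the difference was -0.24 (adjusted p 0.627).

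**Figure D3:**
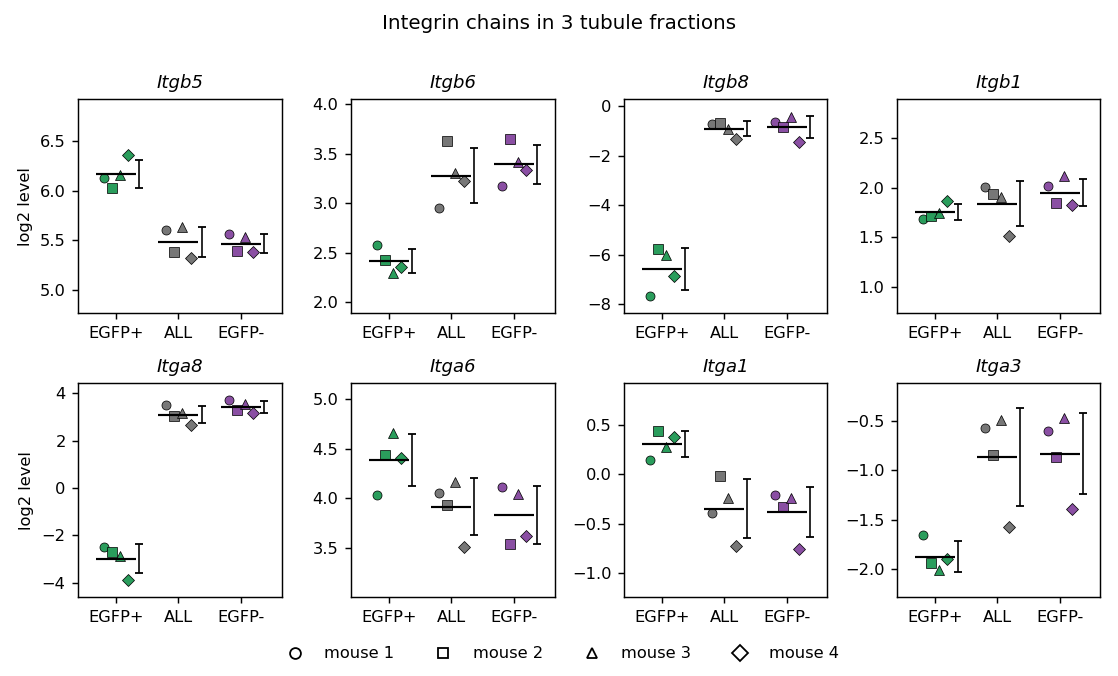
Log2 level relative to the array's 75th percentile (vertical axes, scaled separately for each gene) of 8 integrin chains in EGFP+, ALL and EGFP- tubules, with 1 symbol per mouse, the mean as a line and the SD as a bar (n = 4). Itgb5 and Itga1 were highest in EGFP+ tubules, Itgb6, Itgb8, Itga8 and Itga3 were lowest there, and Itgb1 and Itga6 overlapped.

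Of the 10 tested fibrillar collagens, 3 were higher in EGFP+ tubules, 4 were lower and 3 did not pass. The median log2 difference was -0.45, and 0.69 with normexp. Col5a2, a chain that forms fibrils together with collagen I and usually with Col5a1, was the most strongly higher of all members. It was at 2.75, 2.51, 2.24 and 2.48 in EGFP+, -0.46, -0.69, -0.76 and -1.38 in the ALL fraction and -1.84, -1.98, -2.33 and -3.52 in EGFP- tubules, by a single probe (at chr1:45321322-45321381). The 3 fractions did not overlap, with ALL between the others in each mouse. The level in EGFP+ was 30.0-fold that in EGFP- (log2 difference 4.91, SE 0.33, adjusted p 1.42e-07). Its partner Col5a1 was lower instead, at -3.57, -5.23, -2.93 and -6.19 in EGFP+ and -2.77, -2.64, -2.96 and -3.56 in EGFP- tubules, with overlap (-1.496, adjusted p 0.0468). That call ended without mouse 1, 2 or 4 (adjusted p 0.0767, 0.245 and 0.0842) and with normexp (-0.032, adjusted p 0.936). Col5a3 had no EGFP+ array above background and was at least 2.36-fold lower (adjusted p 0.000180), but its difference turned with normexp (0.093, adjusted p 0.897).

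Col24a1, a fibrillar collagen of developing bone and cornea, was the other clearly higher chain, at -1.76, -2.27, -1.59 and -2.86 in EGFP+, -3.86, -3.20, -4.14 and -4.02 in the ALL fraction and -4.45, -3.17, -4.76 and -3.93 in EGFP- tubules (probe at chr3:145488895-145488954). Its EGFP+ values lay above the rest, 3.88-fold (log2 difference 1.96, SE 0.37, adjusted p 0.000706), and a second probe gave 1.31 (adjusted p over probes 0.024). Col11a2 was higher by 0.57 (SE 0.15, adjusted p 0.00747), at -3.34, -3.49, -3.91 and -3.45 in EGFP+ and -4.24, -3.92, -4.11 and -4.22 in EGFP- tubules, with -3.56, -3.82, -3.99 and -4.09 in ALL (probe at chr17:33676507-33676566). Its EGFP+ and ALL values overlapped. With the mean of its 2 probes, the difference was 0.34 (adjusted p 0.343).

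Col1a2, a chain of the main stromal collagen, was 29.9-fold lower in EGFP+ tubules. It was at -2.26, -1.90, -2.56 and -3.35 in EGFP+, 2.23, 2.04, 2.38 and 1.69 in the ALL fraction and 2.77, 2.34, 2.40 and 2.04 in EGFP- tubules (probe at chr6:4490619-4490678), with no overlap (log2 difference -4.90, SE 0.28, adjusted p 4.16e-08). Its partner Col1a1 and the co-assembling Col3a1 were each measured by only 1 of 3 probes, which was above background on 8 and 9 of the 12 arrays. Col1a1 was at -4.86, -3.62, -6.02 and -6.82 in EGFP+ and -4.93, -4.04, -4.78 and -4.98 in EGFP- tubules (difference -0.65, interval -1.93 to 0.64). Col3a1 was at -3.88, -2.96, -4.73 and -5.11 in EGFP+ and -4.71, -3.75, -4.59 and -5.14 in EGFP- tubules (difference 0.38, SE 0.51). The ranges of both genes overlapped between the fractions, and neither passed. Col3a1 and Col5a2 lie 24624 bases apart on chromosome 1 in GRCm38.p6. Col27a1, a fibrillar collagen of cartilage and epithelia, was at -1.45, -0.96, -1.57 and -1.16 in EGFP+, 0.57, 0.45, 0.40 and 0.91 in the ALL fraction and 0.48, 0.55, 0.50 and 1.04 in EGFP- tubules (probe at chr4:62820812-62820871). The EGFP+ values lay below the rest, with a difference of -1.93 (SE 0.18, adjusted p 2.24e-06), and all 3 probes passed. Col2a1, the cartilage collagen, differed by -0.25 and did not pass.

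**Figure D4:**
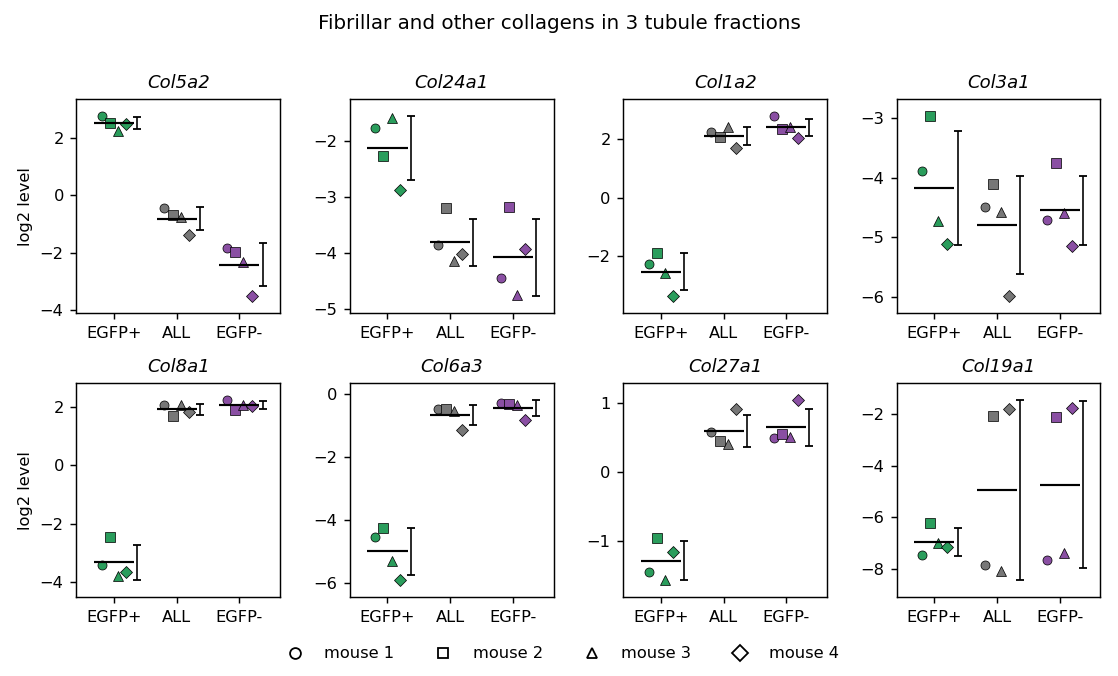
Log2 level relative to the array's 75th percentile (vertical axes, scaled separately for each gene) of 8 collagens in EGFP+, ALL and EGFP- tubules, with 1 symbol per mouse, the mean as a line and the SD as a bar (n = 4). Col5a2 and Col24a1 were highest in EGFP+ tubules, Col1a2, Col8a1, Col6a3 and Col27a1 were lowest there, and Col19a1 was high in ALL and EGFP- tubules of mice 2 and 4 alone.

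Among the network, beaded and anchoring collagens, 3 of 8 were tested, and 2 were lower and 1 higher. Col8a1, a network collagen of vessels and mesangium, was at -3.43, -2.45, -3.79 and -3.65 in EGFP+, 2.08, 1.69, 2.08 and 1.82 in the ALL fraction and 2.24, 1.90, 2.08 and 2.04 in EGFP- tubules (probe at chr16:57548065-57548124). It was 42.0-fold lower without overlap (log2 difference -5.39, SE 0.25, adjusted p 8.26e-09). Col6a3, of the beaded filaments of connective tissue, was lower, at a log2 difference of -4.55 (SE 0.32, adjusted p 2.05e-07), with 2 of 4 EGFP+ arrays above background. Col7a1, which forms the anchoring fibrils of skin, was higher, at 0.87, 0.60, 0.60 and 0.84 in EGFP+, -0.15, -0.088, -0.43 and 0.093 in the ALL fraction and -0.66, 0.047, -0.35 and 0.053 in EGFP- tubules (probe at chr9:108841747-108841806). These did not overlap, with a difference of 0.95 (SE 0.17, adjusted p 0.000564).

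Of 3 tested multiplexins and transmembrane collagens, Col18a1 was higher, Col15a1 lower and Col13a1 did not pass, with a median of -0.63, or 0.54 with normexp. Col18a1, the basement membrane collagen that yields endostatin, was at 4.96, 4.94, 5.15 and 4.66 in EGFP+, 4.49, 4.16, 4.62 and 3.97 in the ALL fraction and 4.51, 4.10, 4.43 and 4.02 in EGFP- tubules (probe at chr10:76496791-76496850). The EGFP+ values lay above the rest, by 0.66 (SE 0.17, adjusted p 0.00643), and a second probe gave 0.74. The call ended without mouse 2 (0.60, adjusted p 0.055) and with normexp (0.54, adjusted p 0.0534). Col15a1, its relative in vessels and muscle, was at -5.12, -4.91, -4.38 and -5.55 in EGFP+, -1.90, -2.46, -1.78 and -3.05 in the ALL fraction and -1.59, -2.30, -1.75 and -2.79 in EGFP- tubules (probe at chr4:47333331-47333390). It was 7.37-fold lower without overlap (adjusted p 2.08e-05), and with normexp the log2 difference was -0.95 (adjusted p 0.0612). Col13a1 differed by -0.63 (adjusted p 0.0626) and passed with mouse as a block (0.0209) and without mouse 2 (-0.88, adjusted p 0.0225).

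The fibril-associated collagens gave 1 higher, 2 lower and 3 not past the threshold among 6 tested, with a median of -0.63, or 0.39 with normexp. Col12a1 was at -2.04, -2.16, -1.86 and -2.72 in EGFP- and -2.12, -2.55, -2.19 and -3.08 in ALL tubules (probe at chr9:79385147-79385206), and no EGFP+ array was above background, with signals of -7.14, -6.69, -6.64 and -7.31. It was at least 8.33-fold lower (adjusted p 2.38e-08). Col16a1 was lower, at -1.21 (adjusted p 0.00832), a call that ended without mouse 2, 3 or 4 (adjusted p 0.0573, 0.0501 and 0.0517). In mouse 1 its EGFP+ and EGFP- levels were -0.15 and -0.13. Col20a1 was higher by 0.54 (adjusted p 0.0439), which did not hold without mouse 1 or 2 (0.190 and 0.148) or with normexp (0.76, adjusted p 0.0529). Col9a2 (0.42, adjusted p 0.140), Col14a1 (-0.053) and Col19a1 (-2.23) did not pass. No EGFP+ array of Col19a1 was above background, and its bound was 1.43-fold. With mouse as a block, Col9a2 did (adjusted p 0.0491).

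The 6 members that share only the beginning of a name include integrin-binding proteins and unrelated genes. Itgb1bp2 (melusin), an Itgb1-binding protein of striated muscle, was at -3.40, -3.67, -4.66 and -3.75 in EGFP+ tubules, while no ALL or EGFP- array was above background, with signals of -6.57, -7.83, -6.49 and -6.90 in ALL and -7.72, -6.65, -7.50 and -7.06 in EGFP- (probe at chrX:97655295-97655594). It was at least 2.74-fold higher than in EGFP- (adjusted p 6.50e-06). Its probe met the filter of 4 arrays through the EGFP+ arrays alone, so the p-value is not independent of that filter. Itgb3bp, a centromere protein, was higher by 0.33 (adjusted p 0.0294), which ended when any 1 mouse was left out (0.0545 to 0.112). Cert1, a ceramide carrier listed as Col4a3bp, was lower, at -0.45 (adjusted p 0.00773), and was at -0.30 with the median as the scale (0.183). Eif6 (-0.35) and Itgb1bp1 (-0.24) did not pass, and Nmrk2 was not tested.

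Members were also grouped by where the chain is known to be made, in lists chosen with earlier results of these data known. The counts here and in the next paragraph stand beside 32.3% higher and 25.9% lower over all genes. Of 7 chains shared by basement membranes, 3 were higher (Lama5, Lamb1 and Col18a1), 2 lower (Col4a1 and Col4a2) and 2 did not pass, with a median of 0.013. Of 6 tested chains known from tubular epithelium, 2 were higher (Itga6 among them), 3 lower (Lama1, Lama3 and Itgb6) and 1 did not pass (median -0.67, or -0.38 with normexp). Proximal tubule markers fell beside them, 8 of 8, and collecting duct markers in 6 of 8, whereas 4 of 5 thick ascending limb markers were higher. The summed level of proximal markers, over the 4 with a value on each array, ran from 0.66 to 1.96 in EGFP+ and from 6.26 to 6.62 in EGFP- tubules. For collecting duct the ranges were 3.98 to 4.62 and 5.95 to 6.16, and for 4 thick ascending limb genes 4.67 to 5.05 and 5.29 to 5.56. The summed thick ascending limb level was thus lower in EGFP+ tubules, although 4 of 5 markers were higher and 1 was lower. All 8 DCT markers were higher in EGFP+ tubules. The part of these tubule types in the tubular members' differences was not tested. Among 5 chains of the glomerular filter, 1 was higher, 2 were lower (Col4a3 and Itga3) and 2 did not pass (median -0.086). All 8 podocyte markers were lower, and their summed level ran from 0.93 to 1.64 in EGFP+ and from 5.97 to 6.82 in EGFP- tubules. Wt1, a podocyte transcription factor, was at -4.12, -5.05, -4.91 and -6.74 in EGFP+ and 2.25, 1.35, 2.13 and 1.64 in EGFP- tubules. The part of podocytes in the glomerular members' levels was not tested.

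The stromal, vascular and leukocyte chains were mostly lower. Of 9 tested mesangial, vascular and muscle chains, 7 were lower, 1 was higher (Itga1) and 1 did not pass. Their median was -2.48, or -0.92 with normexp and -1.11 over those above background on all 12 arrays. This list includes Itga2b and Itgb3, named above as chains of platelets. Its median of -2.48 is the value of Itga2b, whose call ended with normexp. Of 11 tested stromal fibroblast chains, 7 were lower, 1 was higher (Col5a2) and 3 did not pass (Col1a1, Col3a1 and Col14a1), with a median of -1.496, or -0.032 with normexp and -3.06 over those above background on all 12 arrays. All 3 leukocyte chains were lower. None had an EGFP+ array above background, so they met the filter through ALL and EGFP- arrays alone. Their calls are therefore not independent of the filter. Beside them, 9 of 9 endothelial markers, 8 of 9 mesangial, smooth muscle and fibroblast markers and 5 of 7 leukocyte markers were lower in EGFP+ tubules. The summed endothelial level ran from 2.48 to 2.92 in EGFP+ and from 5.91 to 6.63 in EGFP- tubules. For the mesangial, smooth muscle and fibroblast list the EGFP+ and EGFP- ranges ran from 1.97 to 2.58 and from 4.24 to 4.88, with 2 of its genes, Pdgfra and Des, above background on no EGFP+ array. For leukocytes they ran from -0.22 to 0.47 and from 2.60 to 3.87. Their part in these results was not tested. Among the stromal chains Col5a2 alone was called higher, and which cells gave its signal was not tested.

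Genes that work with these chains were read from lists of 5 kinds, chosen with earlier results of these data known. Their counts, here and in the next paragraph, stand beside 32.3% higher and 25.9% lower over all genes. Of 15 tested basement membrane partners and integrin ligands, 2 were higher and 11 lower. Spp1 (osteopontin, an integrin ligand) rose by 0.79 and Tinagl1 by 0.76, whereas the linker Nid1 (-4.20), the collagen-binding Sparc (-4.12), Tinag (-3.45) and Tnc (-3.42) were the most strongly lower. Npnt (nephronectin), the ligand of the Itga8 receptor, was at -1.15 (adjusted p 0.000468), and is named after its value was seen. Of 21 tested genes of collagen synthesis and crosslinking, 3 were higher and 10 lower. Pcolce, which enhances the trimming of fibrillar procollagens, was 8.06-fold higher, at 6.64 ± 0.19 in EGFP+, 4.48 ± 0.24 in the ALL fraction and 3.63 ± 0.33 in EGFP- tubules (adjusted p 1.88e-07). P3h2, a prolyl hydroxylase for collagen IV (0.75), and the collagen chaperone Serpinh1 (0.58) also rose. Plod2 (-5.10), Pxdn, which crosslinks collagen IV (-4.25), and P4ha2 (-3.58) fell, and Pcolce2 was at least 11.5-fold lower. None of 8 tested matrix proteases and inhibitors was higher and 6 were lower, among them Mmp2 (at least 14.6-fold) and Timp2 (-4.84).

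Among 23 tested integrin adaptors, 2 were higher, 12 were lower and 9 did not pass. Ptk2, the focal adhesion kinase, rose by 1.30 (SE 0.094, adjusted p 2.59e-07) and Tns1 by 0.33, while the related kinase Ptk2b (-2.36), Lims2 (-2.97) and zyxin (-1.49) fell, and Parvb was at least 1.84-fold lower. Of 12 other integrin chains and matrix receptors, 4 were higher and 5 lower. The higher ones were the syndecan Sdc4 (1.39), the collagen IV receptor Ddr1 (1.19), Itgav (0.75) and dystroglycan Dag1 (0.57). The fibrillar collagen receptor Ddr2 (-4.07) and the leukocyte chain Itgal (-3.16) fell.

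The comparison of EGFP+ with ALL tubules uses the same EGFP+ arrays. Here 38 of 59 members passed, 11 higher and 27 lower, beside 55.3% of all genes (30.3% higher and 24.9% lower). Among the higher members were Col5a2 (3.31, adjusted p 4.90e-06), Col24a1 (1.69) and Lamb1 (0.93), and Itgb1bp2 was at least 3.33-fold higher. With normexp the calls of Col24a1 (0.94, adjusted p 0.0669) and Itgb1bp2 (adjusted p 0.221) ended. Itga8 (-6.06), Itgb8 (at least 20.4-fold), Col8a1 (-5.25), Lama3 (-5.19) and Col1a2 (-4.60) led the lower ones. Col4a1 was at -1.62, Col4a2 at -1.56, Col4a3 at -0.90 and Col4a4 at 0.82, each past the threshold. The Col4a4 call ended with normexp (0.36, adjusted p 0.307). Between ALL and EGFP- tubules 1 member passed, higher, and none lower, beside 1.39% higher and 0.00586% lower over all genes. Without adjustment, p was under 0.05 for 1 of the 59 members (limma). The member was Col5a2, at 1.59 (SE 0.33, adjusted p 0.0373) and higher in ALL in 4 of 4 mice. This call ended without mouse 1, 2 or 3 (adjusted p 0.156, 0.278 and 0.387) and with only the ALL and EGFP- arrays in the fit (0.174).

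For the comparison of 2 male with 2 female mice, the 3 fractions of an animal were averaged. Of the members, 1 passed, beside 1.27% of all genes. It was Col19a1, a fibril-associated collagen of basement membrane zones (probe at chr1:24218751-24218810), higher in males (adjusted p 0.00354). The probe met the filter of 4 arrays through male arrays alone, so this p-value is not independent of the filter. No size is given for this difference, because no female array was above background. Its level in ALL tubules was -7.86 and -8.09 in the females and -2.05 and -1.79 in the males. In EGFP- tubules it was -7.65 and -7.41 in the females and -2.13 and -1.76 in the males. Only the male ALL and EGFP- arrays were above background, and the EGFP+ signals of -7.48, -6.23, -7.02 and -7.14 were not. The dependence of the EGFP+ minus EGFP- difference on sex passed for none of the members (limma, adjusted p of at least 0.0864; 7 members had an unadjusted p under 0.05) and for 0% of all genes.

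The other 19 members were not tested, because no probe of theirs was well above background on at least 4 arrays. They are Col10a1, Col11a1, Col17a1, Col22a1, Col23a1, Col25a1, Col28a1, Col6a1, Col6a2, Col8a2, Col9a1, Col9a3, Itga11, Itga2, Itgb2l, Lama2, Lamb3, Lamc3 and Nmrk2. Of the 19, 8 were above background on no array with any probe, and 11 on 1 to 3 arrays. Col6a1 and Col6a2, the partners of Col6a3, were among those at background on all arrays, as was Itga11. Of the 31 members with more than 1 tested probe, all tested probes had the same sign in 30, and in none did probes pass in opposite directions.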

How the data were processed

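RNA of 3 fractions from each of 4 mice was amplified, labelled with Cy3 and hybridised to 1-colour Agilent arrays, per the labels' protocols. The deposited scanner files give each spot's processed signal intensity, background-corrected by the Agilent software per the file headers; the 75th percentile of the array's non-control probes was subtracted after log2. The series' value table was not used. Spots marked as outliers were left out. Testing required a probe to be well above background on 4 or more of the 12 arrays, and a gene took its brightest tested probe. Members with no EGFP+ array above background met this through ALL and EGFP- arrays alone, and Itgb1bp2 through EGFP+ arrays alone. The p-values of all these members are not independent of the filter. limma 3.58.1 fitted 12 arrays with 1 coefficient per fraction, and Benjamini-Hochberg adjusted p-values run over 17071 genes, with a threshold of 0.05. Scripts were tested on simulated data.

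Where no array of the dimmer fraction was above background, the fold is a lower bound against the lowest signal well above background on each array, or the probe's own where higher. The number of arrays limits the precision. Same-numbered samples come from the same mouse, and their deviations correlated (0.304 to 0.386 for EGFP+ with ALL, 0.230 to 0.346 for EGFP+ with EGFP-, 0.724 to 0.819 for ALL with EGFP-). Slides each held several groups, and signs were compared within them, although the mice of EGFP+ and EGFP- differed within each slide. Members and lists were chosen with earlier results of these data known. Genes named with every mouse's values are the collagen IV chains, the 10 most positive and 10 most negative differences with the same sign in 4 mice and signal above background on 3 or more arrays of both fractions, the 6 largest bounds and partner chains; for other lists, up to 4 per direction, and for other comparisons up to 5. Of the members, 1 is counted but its own values are not reported here. Alternatives covered background (normexp with an added constant of 50), scaling, filter, probe choice, slide and mouse blocks, and each mouse left out.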

Additional observations from a re-analysis of the deposited data

Results flagged for a closer look

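Within the 4 mice of a fraction, 9 of 177 sets of levels were flagged because 1 mouse lay far from the other 3. Sets with fewer than 3 arrays above background could not be flagged but are counted in the 177. Chance gives about 5% of the sets that could be flagged, so 9 of 177 is not directly comparable with it. In 8 of the 9 that mouse was mouse 4, whose ALL and EGFP- arrays were the dimmest of the 12. Col14a1 was at -6.88 in ALL tubules of mouse 4, with -4.05 to -3.97 in the other mice, and at -6.10 in EGFP- tubules of mouse 4. Col1a1 was at -5.92 in ALL tubules of mouse 4, and Col20a1 at -2.43 in its EGFP- tubules. Col27a1 was at 1.04 in EGFP- tubules of mouse 4, and Col6a3 at -1.14 in its ALL and -0.81 in its EGFP- tubules. Itga5 was at -6.67 in EGFP- tubules of mouse 4. Itga7 was at -5.52 in EGFP+ tubules of mouse 3.

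For 2 members both males moved one way and both females the other. For Col19a1, by measured signal, EGFP+ minus EGFP- was 0.28 on average in females and -4.74 in males, so that males minus females came to -5.02. Signals were above background in the male ALL and EGFP- arrays alone. These values therefore rest on background signals in all EGFP+ and all female arrays and give no size. For Col4a5 the female mean, the male mean and males minus females were -0.14, 0.086 and 0.23. The difference between the sexes was not past the threshold for either gene (limma over all genes, adjusted p of 0.0864 or more).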

How the results depend on the processing

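The counts of members fell most with normexp background correction and with the filter for probes above background on all 12 arrays, which left 36 members tested. Members higher in EGFP+ than EGFP- numbered 15, 9 with normexp, and 10 to 12 when 1 mouse was left out. Lower ones numbered 28, 18 with normexp, and 26 to 27 without 1 mouse. With probes above background on all 12 arrays, 27 of 36 members passed and 13 of these were lower, so fewer were lower than higher. Over all genes, 62.4% of those called with this filter were higher. Against ALL, 11 were higher (7 with normexp, 9 to 12 without 1 mouse) and 27 lower (18 with normexp, 13 with the all-array filter, 25 to 26 without 1 mouse). The 1 member higher in ALL than EGFP- became 0 with no filter on dim probes, 0 with only those 2 fractions in the fit, and 0 to 1 without 1 mouse. Between the sexes, 1 member passed, 8 with normexp, 3 with median scaling and 0 with the all-array filter. The sign turned with normexp for Col5a3 (0.093) and Itga5 (0.58), and the cause was not tested. The median over all genes was 0.11, and 0.26 with median scaling, 0.15 with quantile normalization and 0.26 with normexp.

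With mouse as a block, 16 members were higher and 30 lower in EGFP+ than EGFP-, and 14 higher and 30 lower than ALL. Against EGFP- the block changed no call beyond those of Itga5, Itgb3, Itgb4, Col13a1 and Col9a2, and against ALL 6 members were added and none lost. Low signal limits the members without an EGFP+ array above background, whose folds are bounds.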
